A study of Mus with 6 samples.

Results

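The genes described here are 10 activity-induced effectors, Arc, Npas4, Bdnf, Nptx2, Inhba, Ptgs2, Vgf, Sik1, Gadd45b and Btg2, out of 54532 genes in the table. They were chosen by symbol, and each symbol matched 1 row. RNA sequencing covered 6 mouse libraries from tissue labelled basolateral amygdala, 3 of wild-type mice (WT) and 3 of mice with the genotype CNTNAP4-KO (KO), all labelled male. No treatment is given for either group. Strain, age, the deleted part of Cntnap4 and whether a library holds 1 animal or a pool are not stated in the labels, so a p-value here reflects only how these samples vary, which may be technical. Values are FPKM, fragments scaled to gene length and library size, which allow levels of different genes to be set side by side.

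When a neuron fires, calcium entering through synaptic receptors and channels activates kinases and the transcription factors CREB, SRF and MEF2. These factors switch on rapid transcription factor genes such as Fos and Egr1, together with effector genes whose products act at synapses, outside the cell or back on transcription. In the amygdala such genes are widely used as markers of recent activity, including activity during fear learning, and several of them are also switched on by growth factors or stress in glia and vessels.

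Cntnap4, a neuronal adhesion protein gene of the neurexin superfamily, had all KO values below all WT values. KO replicates 1 to 3 stood at 1.61, 1.00 and 1.48 FPKM against 2.03, 3.59 and 4.91 for WT (log2 difference -1.05 ± 0.28, limma adjusted p = 0.220). The libraries held 17647556 to 20813211 reads in genes, recovered from FPKM and gene length. The library labelled KO replicate 1 had 43.0 FPKM of Xist, an RNA made from the inactive X, and 0 reads on 4 Y-linked genes. The other 5 libraries had at most 0.0346 FPKM of Xist and 2831 to 4001 such reads. That library therefore goes against its male label. KO replicate 2 stood apart in cell type markers. The summed level of 7 markers of pallial excitatory neurons was 129 FPKM there, against 33.8 and 31.0 FPKM in KO replicates 1 and 3 and 10.7 to 11.8 FPKM in WT. The summed level of 5 markers of hypothalamus and thalamus was 14.4 FPKM there and 363 to 1090 FPKM in the other 5 libraries, where Avp made up most of it. In KO replicate 2 Avp, Oxt and Otp stood at 2.2, 0.103 and 0.0575 FPKM, far below WT. Zic1 (6.68 FPKM, 7.44 to 11.9 elsewhere) and Slc17a6 (5.4 FPKM, 11.8 to 17 elsewhere) were less reduced there. Oxt was also low in KO replicate 3, at 12.5 FPKM against 133 to 209 in WT. No marker of these lists was at 0 in any library. Basolateral amygdala holds mainly pallial excitatory neurons, yet the excitatory markers lay far below the striatal ones, whose sum was 735 to 1470 FPKM. In bulk tissue, a different number of cells and a different RNA level per cell cannot be told apart.

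No member passed the test of KO against WT, and all 10 had a higher fitted level in KO, as did 51.5% of all fitted genes. Bdnf, Nptx2, Sik1, Gadd45b and Btg2 had all their KO values above all their WT values, with KO means at 1.34 to 1.63 times the WT means. Arc and Npas4 were at 1.28 and 1.32 times with overlapping libraries. Inhba, Ptgs2 and Vgf were at 1.02 to 1.14 times, and their direction turned in some fits with 1 library left out. The test was limma across the 16155 genes averaging 0.5 FPKM or more, a filter that all 10 members passed, with Benjamini-Hochberg adjustment and a threshold of 0.05. Each difference is that of KO from WT in log2(FPKM + 0.5) with its standard error, a scale on which differences of weakly expressed genes come out too small. Among all fitted genes 2 passed, which is 0.0124%, and both had at most 5 reads in any library; with a filter of 10 reads added, 0 passed. At an unadjusted p under 0.05, 4 of the 10 members were higher (Nptx2, Btg2, Sik1 and Gadd45b) and 0 were lower, where the shares over all fitted genes were 8.36% higher and 6.85% lower. KO lay wholly above WT for 5 members and wholly below for 0, where those shares were 11.8% and 10.8%. In each of these 5 members the gap was small beside counting error. The 95% counting interval of the lowest KO library overlapped that of the highest WT library. The median log2 difference was 0.34 over the members and 0.01 over all fitted genes. Since the members were chosen with earlier results known, these counts are a description. The 4 members at an unadjusted p under 0.05 were at that level also without KO replicate 1 and without KO replicate 2. In those fits 7.56% and 7.28% of all fitted genes were higher. The 4 members were at that level too with every library scaled to the same total FPKM. There the shares over all fitted genes were 4.09% higher and 8.17% lower. The exact two-sided permutation p was 0.1 for each of the 5 separated members, the smallest that 3 against 3 libraries allow, and 0.2 to 0.9 for the other 5.

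**Figure D1:**
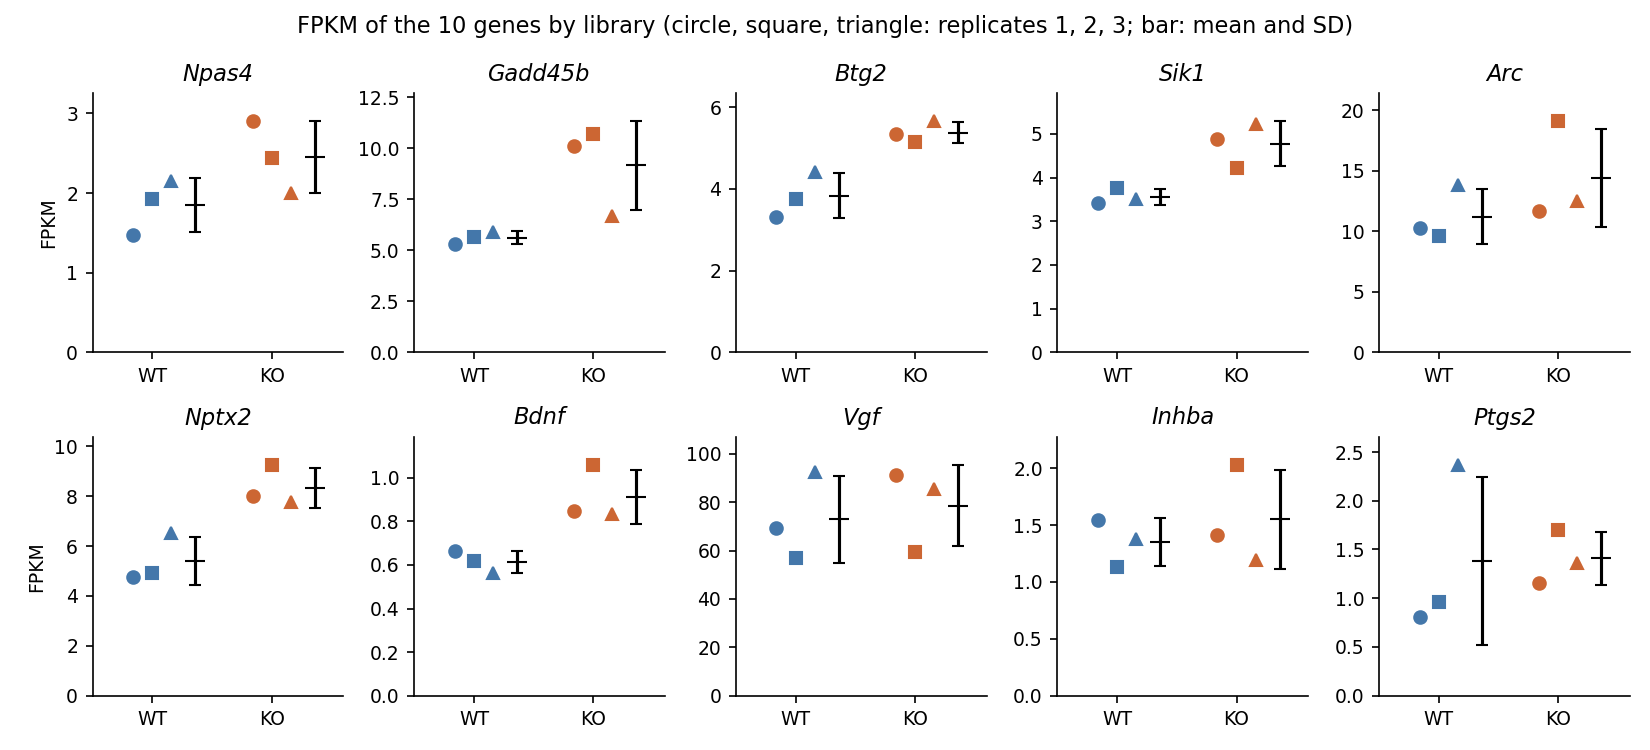
FPKM of each of the 10 genes (vertical axis, from 0) in the 3 WT and 3 KO libraries, with symbols for replicates 1 to 3 and a bar for mean and SD. The groups are separated in Gadd45b, Btg2, Sik1, Nptx2 and Bdnf, and overlap in the other 5 genes.

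Among the members that regulate transcription or RNA, Gadd45b, Btg2 and Sik1 had separated groups and Npas4 did not. Over all fitted genes KO lay wholly above WT in 11.8%. Npas4 (ENSMUSG00000045903, chromosome 19, 4984355 to 4989971, minus strand, GRCm38) encodes a transcription factor that neurons induce through calcium and that shapes inhibitory synapses. The WT libraries held 1.47, 1.93 and 2.15 FPKM of its transcript, and KO replicates 1 to 3 held 2.90, 2.44 and 2.00. KO replicate 3 lay below WT replicate 3, and the other 2 KO libraries lay above all WT libraries. The log2 difference was 0.33 ± 0.16 (limma adjusted p = 0.391), and it ranged from 0.20 without WT replicate 1 to 0.44 without KO replicate 3, where it came under an unadjusted p of 0.05. Npas4 rests on 89 to 179 reads per library. Its dimer partners Arnt and Arnt2 had log2 differences of 0.05 and -0.13, with overlapping groups.

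Gadd45b (ENSMUSG00000015312, chromosome 10, 80930073 to 80932204, plus strand) encodes a stress and activity-induced protein linked to p38 MAP kinase signalling and DNA demethylation. Its 3 WT values were 5.29, 5.67 and 5.91 FPKM, with KO replicates 1 to 3 at 10.1, 10.7 and 6.68. KO replicates 1 and 2 stood well above WT, while KO replicate 3 was only slightly above the highest WT library. The difference was the largest of the 10 members, log2 0.63 ± 0.17 (limma adjusted p = 0.218). Leaving out KO replicate 3 gave 0.83, and leaving out KO replicate 2 gave 0.51. The related genes Gadd45a and Gadd45g had smaller differences of 0.22 and 0.16 with overlapping groups, and all 8 listed relatives and demethylation genes were above an unadjusted p of 0.05.

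Btg2 (ENSMUSG00000020423, chromosome 1, 134075170 to 134079120, minus strand) encodes an antiproliferative protein that recruits the CCR4-NOT deadenylase to messenger RNA. WT replicates 1 to 3 stood at 3.32, 3.75 and 4.41 FPKM, KO replicates 1 to 3 at 5.35, 5.14 and 5.66. The KO libraries were close together and all above WT. The means were 3.83 ± 0.550 and 5.38 ± 0.262 FPKM (SD, n = 3 each) and the log2 difference 0.45 ± 0.11 (limma adjusted p = 0.205). Of 7 genes of its family, of the deadenylase or of its partner Prmt1, an arginine methyltransferase, only Btg3 had an unadjusted p under 0.05. Btg3 stood at 5.14 ± 0.334 FPKM in WT and 6.27 ± 0.555 in KO (log2 0.26 ± 0.09, limma adjusted p = 0.276). Over all fitted genes 8.36% were higher and 6.85% lower at an unadjusted p under 0.05.

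Sik1 (ENSMUSG00000024042, chromosome 17, 31844248 to 31855792, minus strand) encodes a kinase induced by CREB that phosphorylates the CREB coactivators of the CRTC family and keeps them out of the nucleus. The WT libraries held 3.41, 3.77 and 3.51 FPKM of its transcript, and KO replicates 1 to 3 held 4.89, 4.23 and 5.23. The lowest KO value, in KO replicate 2, was still above the highest WT value. The log2 difference was 0.37 ± 0.10 (limma adjusted p = 0.218). The relatives Sik2 (-0.01) and Sik3 (0.17) had smaller differences. Among the 3 CRTC genes Crtc1 was higher, at 15.6 ± 1.47 FPKM in WT and 20.1 ± 2.78 in KO (log2 0.35 ± 0.12, limma adjusted p = 0.257), and Crtc2 and Crtc3 were at 0.05 and 0.02. Sik1 and Btg2 had their lowest KO value in KO replicate 2, the library with the most excitatory neuron markers. The other separated members, Bdnf, Nptx2 and Gadd45b, had their highest KO value there. The part of these markers in the members' values was not tested.

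Of the members that act at the synapse, Nptx2 was separated and Arc was not. Arc (ENSMUSG00000022602, chromosome 15, 74669083 to 74672570, minus strand) encodes a protein that drives internalization of AMPA receptors. Its 3 WT values were 10.3, 9.57 and 13.8 FPKM, with KO replicates 1 to 3 at 11.7, 19.1 and 12.5. KO replicate 2 alone exceeded all WT libraries. The log2 difference of 0.33 ± 0.21 (limma adjusted p = 0.492) was 0.12 without KO replicate 2. Arc rests on 526 to 1058 reads per library, so counting error, with a coefficient of variation of 3.68%, is small beside the spread between libraries of 20.2% in WT and 28.2% in KO.

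Nptx2 (ENSMUSG00000059991, chromosome 5, 144545902 to 144557478, plus strand) encodes neuronal pentraxin 2, also called Narp, a secreted protein that clusters AMPA receptors at excitatory synapses on interneurons. WT replicates 1 to 3 stood at 4.74, 4.93 and 6.53 FPKM, KO replicates 1 to 3 at 7.99, 9.26 and 7.77. All KO libraries were above WT replicate 3, the highest WT library. The means were 5.40 ± 0.981 and 8.34 ± 0.805 FPKM and the log2 difference 0.59 ± 0.13, with the smallest p of the 10 members (limma adjusted p = 0.200). Both other neuronal pentraxin genes were higher as well. Nptx1 stood at 13.3, 11.5 and 11.5 FPKM in WT, against 20.8, 40.9 and 18.3 in KO (log2 1.02 ± 0.28, limma adjusted p = 0.224). Nptxr, the membrane-bound pentraxin, stood at 27.1, 24.7 and 27.9 FPKM in WT, against 39.4, 78.1 and 37.3 in KO (0.86 ± 0.27, limma adjusted p = 0.252). In these relatives KO replicate 2 stood far above the other KO libraries, more so than in Nptx2. The AMPA receptor gene Gria4 was lower on average, at 18.7 ± 2.05 FPKM in WT and 14.6 ± 1.81 in KO, with overlapping groups. Its log2 difference was -0.35 ± 0.12 (limma adjusted p = 0.267), and that of Gria1 was 0.10.

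**Figure D2:**
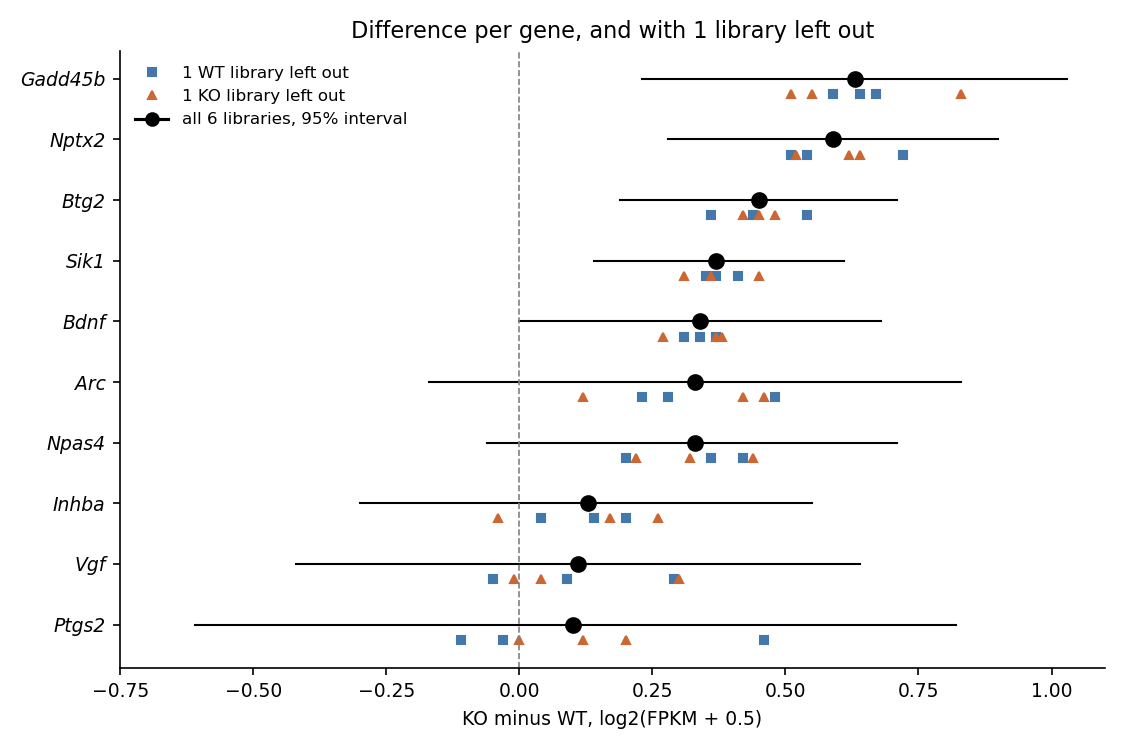
Fitted KO minus WT difference of each gene in log2(FPKM + 0.5) units (horizontal axis), with its 95% interval in black and the 6 values that leave out 1 library below it. The intervals of Gadd45b, Nptx2, Btg2 and Sik1 lie above 0 before adjustment, and some values for Inhba, Vgf and Ptgs2 lie below 0.

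Of the secreted factors, Bdnf had separated groups, while the groups of Vgf and Inhba overlapped; differences between members were not tested. Bdnf (ENSMUSG00000048482, chromosome 2, 109674700 to 109727007, plus strand) encodes brain-derived neurotrophic factor, which strengthens synapses through its receptor TrkB. It was the lowest of the 10 genes, with WT replicates 1 to 3 at 0.663, 0.617 and 0.562 FPKM and KO replicates 1 to 3 at 0.847, 1.06 and 0.835. The groups did not overlap. These values rest on 69 to 76 reads per WT library and 92 to 119 per KO library. The log2 difference was 0.34 ± 0.15 (limma adjusted p = 0.330), just above an unadjusted p of 0.05. That p came under 0.05 in 6 of the 11 alternatives that kept all libraries and in 0 of the 6 that left out 1 library. At this low level it depends on the constant added, with 0.24 for 1 FPKM and 0.50 for 0.1 FPKM, and it was 0.52 ± 0.19 with limma's voom on recovered reads (adjusted p = 0.209). The receptor gene Ntrk2, which encodes TrkB, had a log2 difference of 0.06. The sorting receptor genes Sort1 (0.35 ± 0.14) and Sorcs2 (0.23 ± 0.08) were higher at an unadjusted p under 0.05. Ngfr, the p75 neurotrophin receptor, was lower, at 20.1, 22.0 and 24.1 FPKM in WT against 15.7, 6.52 and 8.81 in KO (log2 -1.14 ± 0.28, limma adjusted p = 0.207).

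Vgf (ENSMUSG00000037428, chromosome 5, 137026392 to 137033351, plus strand) encodes a precursor of secreted neuropeptides that nerve growth factor and activity induce. It was the most abundant member, ranking 536 of all genes by mean level. The WT libraries held 69.5, 57.0 and 92.4 FPKM of its transcript, and KO replicates 1 to 3 held 91.1, 59.4 and 85.4. WT replicate 3 was highest, and KO replicate 2 was below 2 of the 3 WT libraries. The log2 difference of 0.11 ± 0.22 had a 95% interval of -0.42 to 0.64 and was -0.05 without WT replicate 2, -0.01 without KO replicate 1 and 0.30 without KO replicate 2. With 3047 to 5974 reads per library, depth did not limit this value. The hypothalamus and thalamus marker sum was 14.4 FPKM in KO replicate 2 and 935 FPKM in WT replicate 2, libraries with similar Vgf. The part of these markers in the Vgf result was not tested. Of 9 genes for granule proteins, processing enzymes and receptors, Chgb (0.59 ± 0.17) and Pcsk2 (0.56 ± 0.18) were higher at an unadjusted p under 0.05. The share of all fitted genes higher at that level was 8.36%. Scg2, another granule protein gene, was lowest in KO replicate 2, at 103 FPKM against 159 to 197 FPKM elsewhere.

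Inhba (ENSMUSG00000041324, chromosome 13, 16011851 to 16031621, plus strand) encodes the subunit that forms activin A, a secreted ligand of the TGF-beta family that protects neurons. Its 3 WT values were 1.54, 1.13 and 1.38 FPKM, with KO replicates 1 to 3 at 1.41, 2.03 and 1.19. KO replicate 2 was above all WT libraries and the other KO libraries were within the WT range. The log2 difference was 0.13 ± 0.18 (95% interval -0.30 to 0.55) and -0.04 without KO replicate 2. An annotated pseudogene on the opposite strand, B230303A05Rik, overlaps 11573 bases of the Inhba locus and held 114 to 168 reads. The labels and the table do not say whether counting used strand, so Inhba is uncertain to that extent. Downstream, the receptor gene Acvr1b (0.30 ± 0.09) and the signal transducer gene Smad3 (0.53 ± 0.15) were higher at an unadjusted p under 0.05, and 0 of the 10 fitted activin pathway genes were lower. Over all fitted genes 8.36% were higher and 6.85% lower at that level.

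Ptgs2 (ENSMUSG00000032487, chromosome 1, 150100031 to 150108227, plus strand) encodes cyclooxygenase-2, the inducible enzyme of prostaglandin synthesis, found in excitatory neurons and in activated vessels. WT replicates 1 to 3 stood at 0.805, 0.959 and 2.37 FPKM, KO replicates 1 to 3 at 1.16, 1.70 and 1.36. WT replicate 3 was the highest of the 6 libraries, and WT replicates 1 and 2 were the lowest. The log2 difference of 0.10 ± 0.30 (95% interval -0.61 to 0.82) was 0.46 without WT replicate 3, where it came under an unadjusted p of 0.05 (limma adjusted p = 0.351), and -0.11 without WT replicate 1. WT replicate 3 also had the highest sum of 6 vessel and meningeal markers, 98.3 FPKM against 50.0 to 77.6 FPKM elsewhere, and the lowest share of mitochondrial reads, 3.42% against 5.63% to 8.14%. The part of either in the Ptgs2 value was not tested. Of 7 fitted genes for prostaglandin synthesis, receptors and breakdown, 2 were lower at an unadjusted p under 0.05 and 0 higher. Over all fitted genes those shares were 6.85% and 8.36%. The receptor gene Ptger3 stood at 1.09, 1.13 and 1.09 FPKM in WT, against 0.570, 0.583 and 0.605 in KO (log2 -0.56 ± 0.13, limma adjusted p = 0.201). Hpgd, which encodes the enzyme that inactivates prostaglandins, measured 4.15 ± 0.415 and 2.73 ± 0.743 FPKM (-0.55 ± 0.17, limma adjusted p = 0.242).

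In order of mean level in WT the members ran Vgf, Arc, Gadd45b, Nptx2, Btg2, Sik1, Npas4, Ptgs2, Inhba and Bdnf. The order in KO was the same except that Inhba stood above Ptgs2. Gadd45b and Nptx2, Btg2 and Sik1, Npas4 and the next gene below it, and Ptgs2 and Inhba had overlapping ranges in both groups. The other neighbours in the order were separated.

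Across libraries the members did not move as a block. KO replicate 2 was the highest KO library for 6 members (Arc, Bdnf, Nptx2, Inhba, Ptgs2 and Gadd45b) and the lowest for 3 (Vgf, Sik1 and Btg2). WT replicate 3 was the highest WT library for 7. After centring each gene on its mean over the 6 libraries, WT replicates 1 to 3 averaged -0.28, -0.26 and 0.03 log2 units over the members, and KO replicates 1 to 3 averaged 0.17, 0.26 and 0.08. On this average WT replicate 3 lay nearer to KO replicate 3 than to the other WT libraries, with its highest values in Ptgs2 (0.65) and Vgf (0.31). In Bdnf, Sik1, Gadd45b and Btg2, members with separated groups, it stood at -0.24, -0.21, -0.25 and -0.03. There it was nearer to WT replicate 2 than to KO replicate 3, while Nptx2 went the other way.

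**Figure D3:**
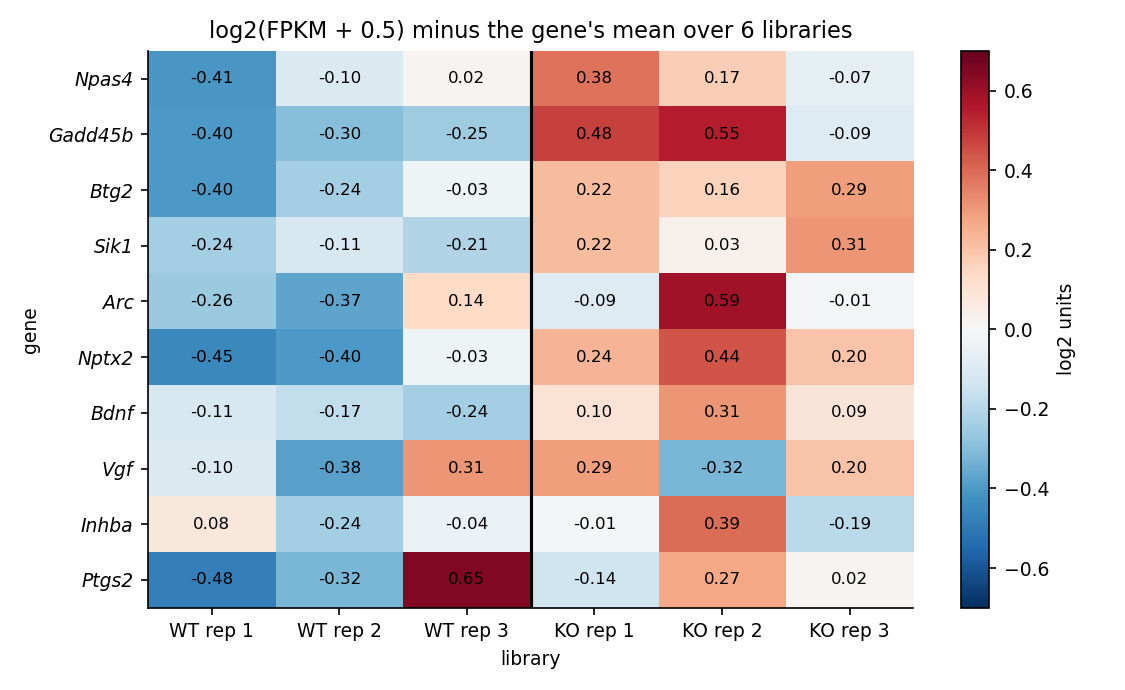
Level of each gene (rows) in each library (columns) as log2(FPKM + 0.5) minus the mean of that gene over the 6 libraries, printed in each cell and coloured from blue (low) to red (high). WT replicates 1 and 2 were below the mean in all genes but Inhba in WT replicate 1, whereas WT replicate 3 was high in Ptgs2 and Vgf.

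No marker of another cell type passed the adjusted threshold, and the summed levels of some marker lists overlapped between the groups while others did not. For all 7 excitatory neuron markers the KO libraries lay wholly above the WT libraries, with 6 at an unadjusted p under 0.05. Over all fitted genes 11.8% lay wholly above, and 8.36% were higher and 6.85% lower at that level. Of 7 striatal markers 4 were higher at that level, and the sums of the list were 735 to 982 FPKM in WT and 1050 to 1470 FPKM in KO. Of 6 oligodendrocyte markers 5 were lower, with sums of 972 to 1320 FPKM in WT and 591 to 890 FPKM in KO. Of 6 inhibitory neuron markers 2, Sst and Vip, were higher and 0 lower at that level, and the list summed to 593 to 713 FPKM in WT and 641 to 755 FPKM in KO. Of 4 astrocyte markers 0 were at that level, with sums of 122 to 137 and 117 to 139 FPKM. Both of these sums overlapped between the groups. Of 4 microglial markers 2 were lower at that level, with overlapping sums of 113 to 128 and 102 to 124 FPKM. Of 6 vessel and meningeal markers 1 was lower, Ttr, a transcript abundant in choroid plexus, at 26.9, 29.6 and 24.8 FPKM in WT against 4.01, 0.634 and 18.7 in KO. The sums of that list were 76.1 to 98.3 and 50.0 to 68.0 FPKM with Ttr, and overlapped at 48.0 to 73.5 and 49.3 to 58.2 FPKM over the 5 markers without it. Of 5 hypothalamus and thalamus markers 1 was lower, and the sums overlapped. The part of any of these lists in the members' differences was not tested. The excitatory sums of all 3 KO libraries, 31.0 to 129 FPKM, lay above the 10.7 to 11.8 FPKM of WT, so no KO library has the WT level of these markers.

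**Figure D4:**
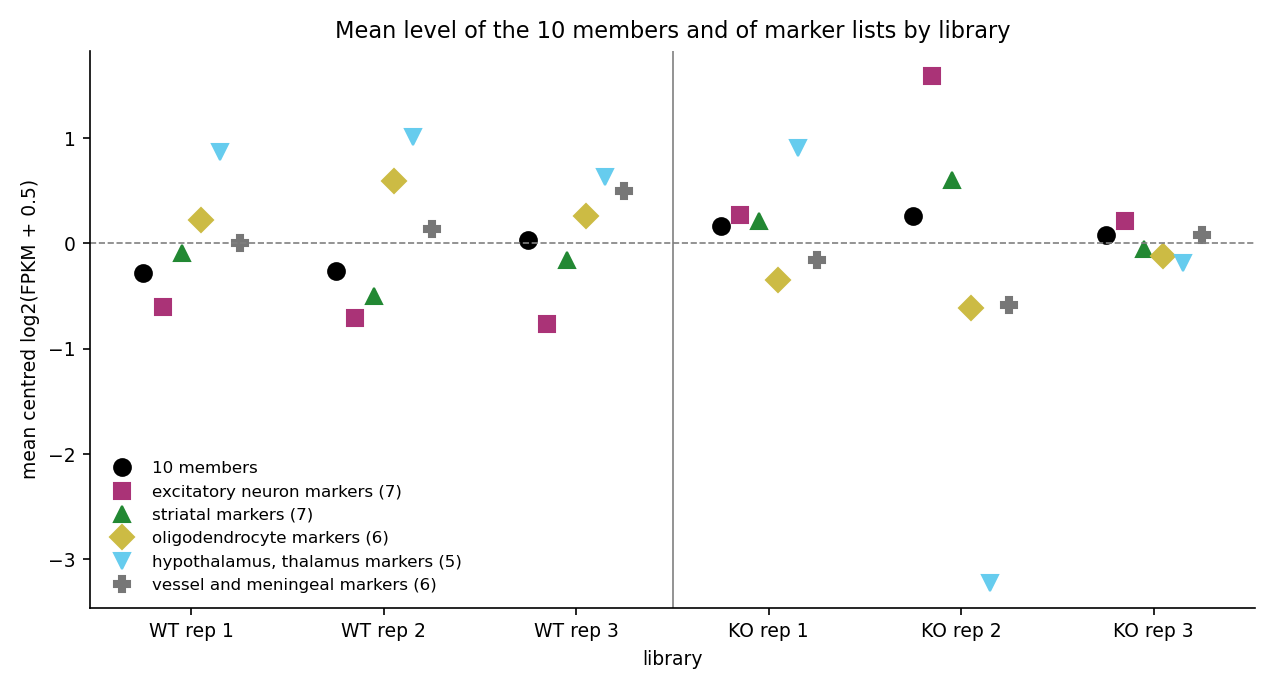
Mean centred log2(FPKM + 0.5) of the 10 members and of 5 marker lists (vertical axis) in each library. The members span -0.28 to 0.26, the excitatory markers reach 1.59 in KO replicate 2, and the hypothalamus and thalamus markers fall to -3.22 there.

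Rapid transcription factor genes of the same activity response had a median near the 0.34 of the members, and the lists were not compared by a test. Of 20 fitted genes, 12 were higher and 0 lower at an unadjusted p under 0.05, with a median log2 difference of 0.39, and 0 passed limma's adjusted threshold. The shares over all fitted genes at that level were 8.36% higher and 6.85% lower. Those with the smallest p were the clock gene Per1 (0.41 ± 0.08), the AP-1 subunit gene Junb (0.62 ± 0.12), the nuclear receptor gene Nr4a2 (2.02 ± 0.39) and Egr1 (0.71 ± 0.19). Fos, named here after its values were seen, stood at 1.82, 2.93 and 3.40 FPKM in WT, against 2.71, 2.96 and 2.54 in KO, a log2 difference of 0.04 with a 95% interval of -0.41 to 0.49. Without KO replicate 1 the count of higher genes was 8, and without KO replicate 2 it was 10. In those fits 7.56% and 7.28% of all fitted genes were higher.

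Other effector genes of the response were mixed. Of 27 fitted genes 7 were higher and 1 lower at an unadjusted p under 0.05, with a median of 0.09. For this list and the next, the shares over all fitted genes were 8.36% higher and 6.85% lower. The small GTPase gene Rem2 (0.54 ± 0.12), the polo-like kinase gene Plk2 (0.56 ± 0.14), the MAP kinase phosphatase gene Dusp5 (0.47 ± 0.13) and Csrnp1 (0.45 ± 0.13) had the smallest p. Syt4, named after its values were seen, was the lower gene, at 51.3 ± 1.71 FPKM in WT and 44.9 ± 2.43 in KO. Genes that carry the calcium signal to the nucleus had a median of 0.29 over 23 genes, with 9 higher and 0 lower. Mapk3, which encodes ERK1, measured 67.7 ± 5.45 and 89.0 ± 10.1 FPKM (log2 0.39 ± 0.11), and the SRF coactivator gene Mkl1 (0.35 ± 0.11), Crtc1 and Mef2a (0.29 ± 0.10) followed. Without KO replicate 2 the count of higher genes in the calcium list dropped to 3, with a median of 0.16, where 7.28% of all fitted genes were higher. The direct partners of the members, some of which are also in these lists, had a median of 0.08 over 60 genes, with 10 higher and 4 lower. Over all fitted genes those shares were 8.36% and 6.85%.

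**Figure D5:**
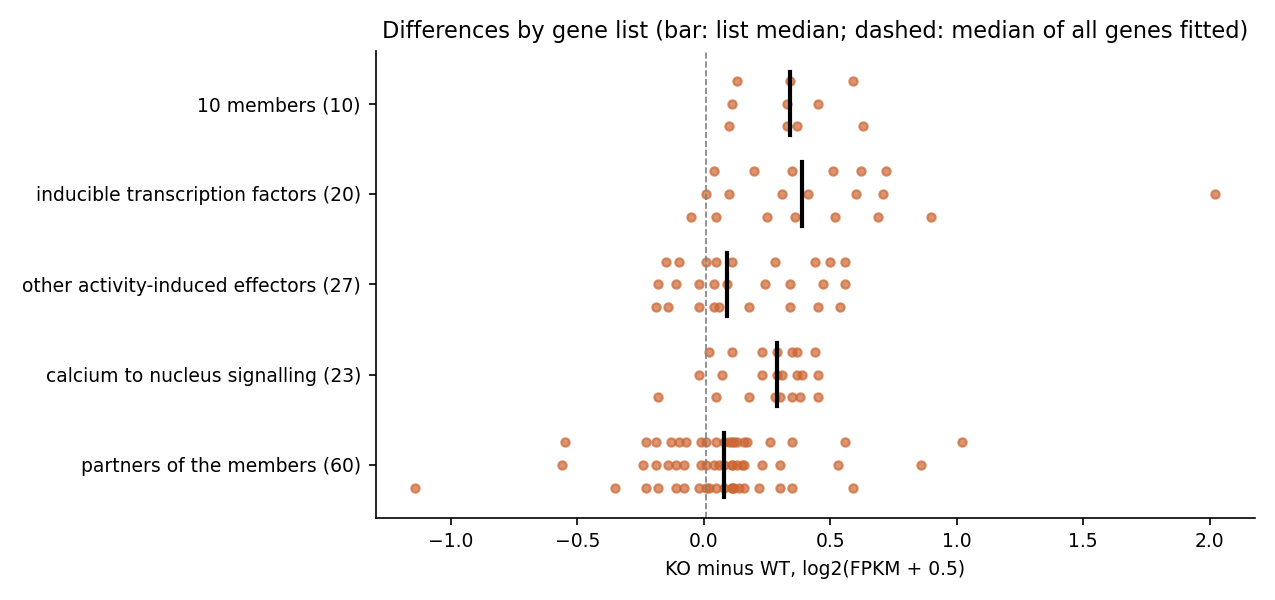
KO minus WT difference of each fitted gene in log2(FPKM + 0.5) units (horizontal axis) for the 10 members and 4 related gene lists, each point a gene. The list medians are 0.34, 0.39, 0.09, 0.29 and 0.08 from top to bottom, and the dashed line marks the median of all fitted genes at 0.01.

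Among 11913 protein-coding genes averaging 1 FPKM or more, those closest over the 6 libraries to the mean centred profile of the members were Pdia5, Galnt9, Uqcc3, Frmd6 and Dusp1. Their root mean square differences from that profile were 0.0490 to 0.0611 log2 units, while those of the members themselves were 0.114 (Btg2) to 0.297 (Ptgs2). These genes were picked out of 11913 for the smallest differences. That they lie closer than the members, and higher in KO, follows from this choice. Dusp1, a phosphatase gene of the MAP kinase feedback, is itself activity-induced. It measured 7.14 ± 1.00 FPKM in WT and 8.72 ± 0.587 in KO.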

How the data were processed

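The authors deposited 1 table of FPKM values per gene with gene coordinates and lengths. The build is GRCm38 (mm10), per the submitters' processing notes. The sources used here do not name an aligner, a counter or an annotation release. Per the labels' protocols, libraries were made from column-purified total RNA with a SMARTer mRNA kit. All sample columns were matched by name, with 0 left unmatched. FPKM times gene length gave whole reads for 100% of nonzero values, within 0.01 of a read. Reads carry no molecular identifiers, so errors from reads cover counting only.

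KO was compared with WT by limma 3.58.1 in R 4.3.3, with trend and robust empirical Bayes, on log2(FPKM + 0.5), across all 16155 genes averaging 0.5 FPKM or more. The procedure was tested on simulated reads, where, with no difference put in, it made false calls among genes of few reads, so a call in such genes is unreliable. A single gene's exact test was a two-sided permutation over samples. Members and lists were chosen with earlier results of these data known. Named genes are all members, up to 4 genes per related list by smallest p below 0.05, direct partners of members, and the 5 genes most like the members' profile. No sequence is shown.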

Additional observations from a re-analysis of the deposited data

How the results depend on the processing

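All 10 members stayed above limma's adjusted threshold under the 17 or 18 alternatives each entered, and Arc, Npas4, Bdnf, Nptx2, Sik1, Gadd45b and Btg2 kept their direction in each. Leaving out 1 library turned the direction of Ptgs2 (-0.11 without WT replicate 1, -0.03 without WT replicate 2, and just below 0, rounded to 0.00, without KO replicate 2), Vgf (-0.05 without WT replicate 2, -0.01 without KO replicate 1) and Inhba (-0.04 without KO replicate 2). Over these fits Ptgs2 reached 0.46, Vgf 0.30 and Inhba 0.26. The cause was not tested. The number of genes past the adjusted threshold was 2. It was 0 with a pseudocount of 0.1, no filter, a filter at 5 FPKM, the replicate block, voom on recovered reads or a filter of 10 reads, 1 with quantile normalization and 5 after rescaling to an equal FPKM sum. It ranged from 0 to 9 with 1 library left out. With a filter at 5 FPKM only 4 members are fitted, 2 of them higher at an unadjusted p under 0.05. The share of all genes fitted there that were higher was 11.8%, and the members' median was 0.46. Without 1 library that median ranged from 0.31 to 0.44 (without WT replicate 3). No pairing of the samples by replicate number was visible. Deviations of same-numbered libraries correlated at -0.09, -0.14 and -0.07 across genes, and no library correlated best with its own number. With 3 libraries per group such correlations cannot exclude a pairing. The block changed no call of a member. Of the genes at an unadjusted p under 0.05, 55.0% were higher in KO, against 33.3% after rescaling to an equal sum, 45.1% with quantile normalization and 38.0% with voom. Nptx2, Btg2, Sik1 and Gadd45b were at that level under each of these scalings. The filter of 10 reads, the vessel marker sum without Ttr, and leaving out KO replicates 1 and 2 for the related lists, were chosen after seeing the data. Depth limits Bdnf most, with a counting coefficient of variation of 10.6%.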
